A study of Rattus norvegicus with 12 samples.

Results

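In the lungs of rats given silica, 45 genes were measured at least 1 log2 unit (2-fold) above the saline rats on day 28 and less than 0.5 above them on day 14. They were chosen by these values, among 1099 genes that could be named on the arrays. Of the 1099 genes, 932 had no row in the study's table of changed proteins, and 842 were left once families of transporters, cytokines, chemokines, receptors, collagens, integrins and proteases, and 4 further genes, were set aside by symbol. Among these, 430 genes were raised by at least 1 on day 28, of which 385 were raised by at least 0.5 on day 14 as well and 45 were not. All values of the 45 genes below are therefore a description of genes chosen for this pattern, and no test of them is given as support.

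Total RNA came from whole lung of male Wistar rats, with 1 Cy3-labelled Agilent array for each rat and 3 rats in each of 4 groups. The model rats had been instilled through the trachea with 1 mL of silicon dioxide at 50 mg/mL, and the control rats with 1 mL of saline. The titles instead give 50 mg/kg, a dose by body weight that is not the same, and the difference was not resolved. Lungs were taken at 14d or 28d. The time point of the day 14 arrays comes from their titles and characteristics, since their protocol text names 28 days, and the paper describes rats of day 28 alone, whose lungs were picked for their histology; rat age is not given in the sources used here. Signals cleared the background for 60.5% to 69.5% of the 51255 probes, depending on the array, and none was saturated. A level below is a quantile-normalized log2 intensity of 1 probe, and levels of different probes are not compared.

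Some features of the arrays bear on every value that follows. The 3 silica rats killed on day 28 were hybridized on slide 1 with the first saline rat of that day, and the other 8 rats on slide 2, so that day and slide cannot be told apart for the silica rats. Differences within slide 1 are given below beside the pooled ones. The first silica rat of day 14 stood apart from the other 2, and its mean level was 10.27 for 9 macrophage markers (9.57 and 9.60 in the others), 8.73 for 5 T and NK cell markers (7.27 and 7.38) and 9.61 for 4 endothelial markers (10.65 and 10.84). In RNA of whole lung, more cells of a type and more RNA per cell cannot be told apart. As a check of the labelled tissue, 2 markers of alveolar type 1 cells had mean levels of at least 11.42 in every saline rat and of 9.55 to 10.89 in the silica rats. The only named marker of airway epithelium, Tppp3, stood at 11.99 to 12.46 and at 9.90 to 11.24, and none of 7 markers of alveolar type 2 cells was among the named genes.

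Silica particles that reach the alveoli are taken up by macrophages, which they injure, and the lung answers with a lasting influx of leukocytes, cell division and scar formation. Free DNA in the cytosol is sensed by cGAS, which signals through STING to type I interferon. Interferon in turn raises a large set of antiviral genes, among them the oligoadenylate synthetases and the Schlafen family. Several of the 45 genes belong to these routes and others to DNA replication, mitosis, lipid metabolism and the epithelial barrier, as gene lists of known roles placed them. In all, 28 of the 45 genes stood in at least 1 such list and 17 in none.

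On day 28 the differences between silica and saline rats ran from 1.00 to 2.13, with a median of 1.11. Those of day 14 ran from -0.34 to 0.49, with a median of 0.34, and 6 of the 45 were below 0. In the limma fit across all probes, 40 of the 44 members that passed the filter on dim probes were called higher in silica rats on day 28 (adjusted p of at most 0.05 and at least 2-fold), where 4.74% of 34097 probes were, and none was called on day 14, where 2.87% were. These counts follow from how the genes were chosen and nothing is read from them. Every silica rat of day 28 stood above every saline rat of that day for all 45 genes (22.6% of the tested probes). On day 14 the same held for 13 of 45 (15.4% of the tested probes). The 3 silica rats of day 28 exceeded all other 9 rats for 20 of the 45 genes (9.18% of the tested probes).

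The plot of both differences places the 45 genes among the other named genes.

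**Figure D1:**
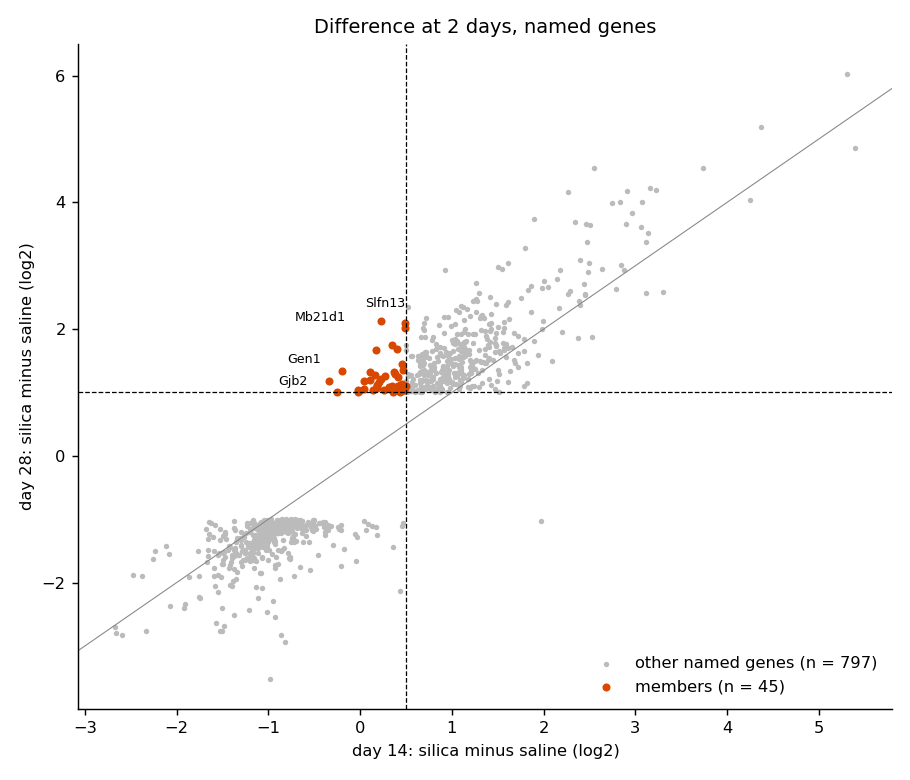
Difference between silica and saline rats (log2, series value table) on day 14 (horizontal) and day 28 (vertical) for 842 named genes, with dashed lines at 0.5 and 1 and a grey line of equal difference. The 45 members (orange) lie above 1 on day 28 and left of 0.5 on day 14; no named gene lies between -1 and 1 on day 28, because the study listed only genes changed at least 2-fold.

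No probe showed a difference between days that passed the test. The interaction of silica and day was called by limma for 0 of 34097 probes (0.0%), with a smallest adjusted p of 0.0570, although 3386 probes had an unadjusted p under 0.05. In the slide-blocked fit 4 probes were called, after normexp background correction 1 and with no filter on dim probes 1. The count rose to 264 without saline replicate 1 of day 28, with 232 of these probes lower, and to 21 without silica replicate 1 of day 14. The pattern itself was not rare. Among the 1716 tested probes raised by at least 1 on day 28, 221 (12.9%) stayed under 0.5 on day 14, against 45 of the 430 named genes (10.5%).

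The thresholds cut through a continuous range. Just inside the limit of day 14 stood Tlr6 at 0.494, Slfn13 at 0.492, Mob3a and Milr1 at 0.488 and Tlr13 at 0.483. Just outside it were LOC100360017 at 0.501, Cenpn at 0.502, Rbpj at 0.504, Tcp11l1 at 0.511 and Ikbke at 0.512. On day 28 the members nearest to the limit were Mthfd2l and Camk1d at 1.00, Hist2h3c2 and Tm4sf4 at 1.01 and Gcnt1 at 1.03, and none lay just outside because the study named no gene under 2-fold.

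Interferon-stimulated genes gave 4 of the 45, Slfn13, Slfn1, Slfn2 and Oas3. The Schlafen genes encode proteins of the interferon response that act on growth of lymphocytes and on cellular RNA, and Oas3 makes the messenger that switches on RNase L. In the RefSeq annotation of GRCr8 the accession of the Slfn13 probe carries the symbol Slfn9, and that gene, Slfn2 and Slfn1 follow each other on chromosome 10 with 2 other loci between the first pair and none between the second. Related genes in 1 cluster can bind each other's probes, so the probes are printed here with that of Oas3, in lower case.
Slfn13: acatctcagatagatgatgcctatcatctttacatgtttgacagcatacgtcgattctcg
Slfn1: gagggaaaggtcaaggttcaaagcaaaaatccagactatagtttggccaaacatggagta
Slfn2: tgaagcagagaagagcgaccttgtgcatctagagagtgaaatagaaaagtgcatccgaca
Oas3: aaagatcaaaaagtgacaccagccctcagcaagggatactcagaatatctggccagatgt
The 3 Schlafen probes had no run of more than 5 bases in common, and at most 22 of 60 bases matched between any 2 of them without gaps. This compares the probes with each other alone. No probe was compared with the transcripts of the other genes, so binding across genes was not tested.

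Slfn13 stood at 8.36, 8.23 and 8.32 in the saline rats and 9.83, 8.41 and 8.14 in the silica rats of day 14. On day 28 its levels were 7.75, 7.18 and 7.82 in saline and 9.65, 9.82 and 9.57 in silica rats. The first silica rat of day 14 reached the range of day 28, while the other 2 lay near the controls, and the differences were 2.10 ± 0.36 (SE, n = 3 and 3) on day 28 and 0.49 ± 0.36 on day 14. Without that rat the difference of day 14 was -0.03. Slfn1 was measured at 5.87, 5.50 and 5.88 in saline and 6.02, 5.81 and 5.74 in silica rats of day 14. Its levels on day 28 were 4.58, 5.06 and 5.33 in saline and 6.32, 6.33 and 6.30 in silica rats, so the 3 silica rats of day 28 agreed closely and exceeded all 9 others. The differences were 1.32 ± 0.18 and 0.10 ± 0.18. For Slfn2 the levels of day 14 were 11.61, 11.07 and 11.42 in saline and 11.69, 11.41 and 11.12 in silica rats, which overlapped. Those of day 28 were 10.72, 10.65 and 10.90 in saline and 11.87, 12.02 and 11.90 in silica rats, with no overlap, and the differences came to 1.18 ± 0.17 and 0.04 ± 0.17. Oas3 read 7.57, 7.28 and 7.73 in saline and 7.39, 7.58 and 7.94 in silica rats of day 14. It read 6.57, 6.98 and 6.80 in saline and 7.91, 8.01 and 8.04 in silica rats on day 28, with differences of 1.20 ± 0.17 and 0.11 ± 0.17. For these 4 genes the saline mean of day 28 minus that of day 14 was -0.76 to -0.61, and the median over the 45 genes was -0.36. The rule used these same saline rats and favours a low level in those of day 28, so nothing is read from these values.

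The list held 41 interferon-stimulated genes, of which 12 were among the named genes, all of them picked by the study on these samples. Of the 12, 11 were called higher on day 28 and 1 on day 14, with medians of 1.26 and 0.51. Over all tested probes 4.74% were called higher on day 28 and 2.87% on day 14. Among the 12 named genes, 4 were members. In this list and the lists below, members were chosen for a day 14 difference under 0.5. Their part in the counts and medians of day 14 follows from that rule. All named genes of these lists were listed by the study for a change on day 28, so nothing is read from their calls on that day. The shares of 4.74% and 2.87% over all tested probes stand beside each list.

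Promoters were available from RefSeq (GRCr8) for 35 of the 45 genes, each as 250 bases before and 50 after the gene's start. The letters GAAANNGAA, the core of the element that interferon regulatory factors bind, were searched on both strands and found in 5 of the 35 (14.3%), against 9.71% of all 33469 promoters. The 5 genes were RGD1563091, Oas3, Gen1, Cfap44 and Tlr13. The 2 promoters with more than 1 match are printed, with the matches in capitals.
RGD1563091 (Samd9 in RefSeq), chr4:32138909-32139208, minus strand: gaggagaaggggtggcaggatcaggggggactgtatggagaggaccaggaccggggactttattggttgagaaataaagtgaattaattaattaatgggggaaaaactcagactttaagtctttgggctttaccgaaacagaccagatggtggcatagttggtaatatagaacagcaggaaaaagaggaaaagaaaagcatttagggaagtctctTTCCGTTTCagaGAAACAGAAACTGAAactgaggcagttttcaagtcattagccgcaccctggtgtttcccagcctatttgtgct
Oas3, chr12:41439482-41439781, plus strand: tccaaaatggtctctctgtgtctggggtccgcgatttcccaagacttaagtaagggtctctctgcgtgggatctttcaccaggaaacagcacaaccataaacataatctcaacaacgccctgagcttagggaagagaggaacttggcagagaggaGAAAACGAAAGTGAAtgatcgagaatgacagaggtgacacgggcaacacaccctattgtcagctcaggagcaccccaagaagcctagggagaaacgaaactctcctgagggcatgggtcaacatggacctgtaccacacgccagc
Samd9 and Oas3 are both known to answer to interferon, and their promoters held 3 and 2 matches, some of them overlapping. The promoters of Slfn2 and Slfn9, the RefSeq name of Slfn13, held none of these letters. The E2F letters TTTNGCGC were in no member's promoter (1.28% of all promoters), CCAAT was in 16 (45.7%, against 37.5%), and the NFIL3 letters TTANNTAA were in 3 (8.57%, against 5.84%). A match is a description of letters and not of binding.

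Innate sensing added Mb21d1 (Cgas in RefSeq), Clec9a, Tlr6 and Tlr13. Mb21d1 encodes cGAS, the sensor of cytosolic DNA, and had the largest gap between days. Its probe is printed first.
Mb21d1: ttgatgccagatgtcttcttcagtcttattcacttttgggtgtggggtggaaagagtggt
The levels of Mb21d1 were 4.46, 3.59 and 4.07 in the saline and 3.91, 4.39 and 4.49 in the silica rats of day 14. On day 28 they were 2.88, 4.02 and 4.22 in the saline and 5.90, 5.83 and 5.79 in the silica rats. The 3 silica rats of day 28 lay close together and above all other rats, whose signals were near background, with 1 of 3 saline and 2 of 3 silica arrays of day 14 and 2 of 3 saline arrays of day 28 well above it. The difference was 2.13 ± 0.33 on day 28 and 0.23 ± 0.33 on day 14. Within slide 1 the saline rat was the lowest of the 3 and not well above background, so that there silica was at least 3.25-fold higher (1.70 on the log2 scale), taking the detection limit of that array, where the measured difference was 2.96.

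Clec9a, a receptor of cross-presenting dendritic cells for dead cells, stood at 5.59, 5.03 and 4.72 in saline and 6.74, 4.83 and 5.14 in silica rats of day 14. On day 28 it stood at 4.87, 4.73 and 4.80 in saline and 5.96, 6.21 and 5.62 in silica rats. Its highest level of all was that of the first silica rat of day 14. Tlr6, a partner of Tlr2 in sensing lipopeptides, had levels of 6.28, 5.96 and 6.28 in saline and 7.06, 6.49 and 6.45 in silica rats on day 14 and 6.28, 5.80 and 6.34 in saline and 7.45, 7.11 and 7.15 in silica rats on day 28. The silica rats lay above the saline rats on both days, with differences of 1.097 and 0.49. Tlr13, which senses bacterial ribosomal RNA in rodents, differed by 1.04 and 0.48, and its second named probe by 1.05 and 0.69, which is over the limit of day 14. Of 43 genes in this list 22 were named, of which 21 were called higher on day 28 and 6 on day 14 (4.74% and 2.87% of the tested probes). The medians of the 22 were 1.43 and 0.80.

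The plot of levels by rat shows 12 of the genes in all 12 rats.

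**Figure D2:**
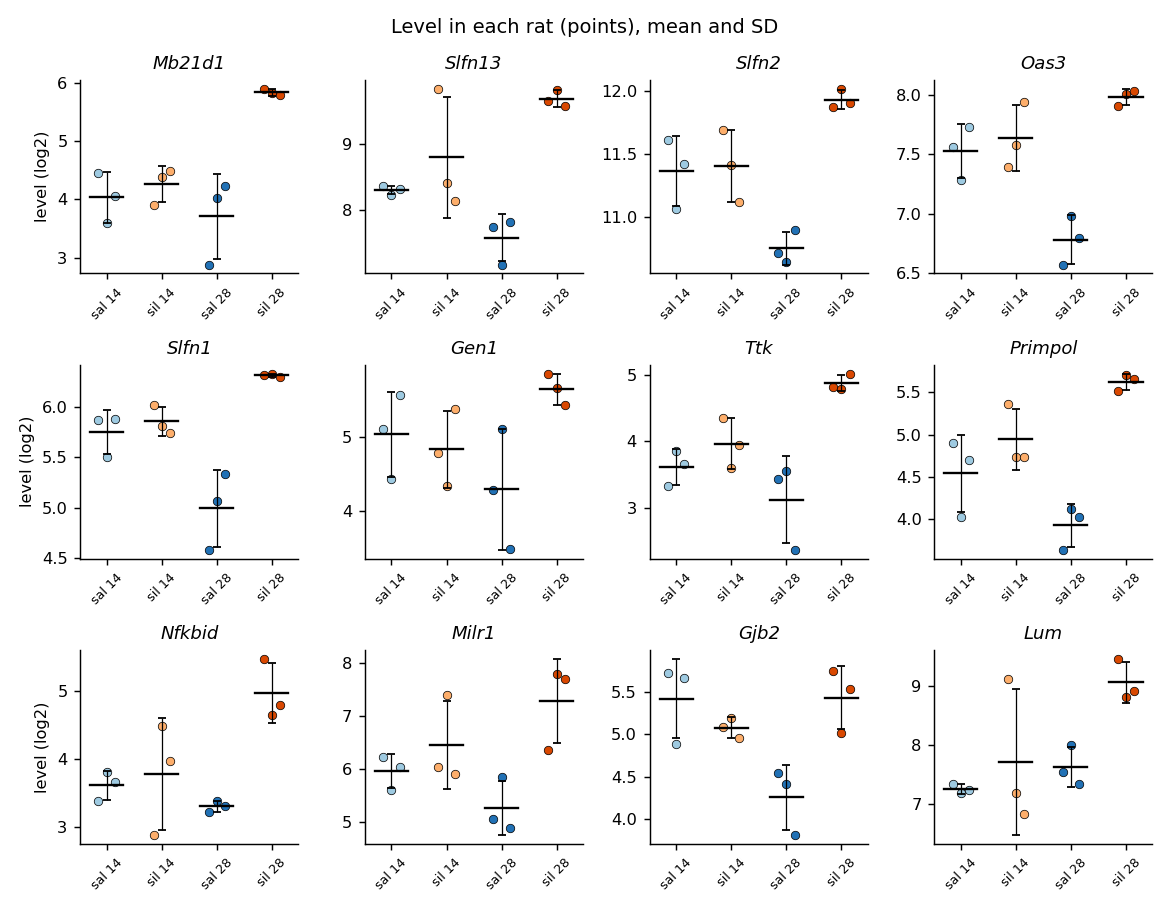
Level (log2 intensity) of 12 members in each rat (points), with the group mean (bar) and SD (whisker, n = 3), for saline (sal) and silica (sil) rats of day 14 and day 28. In every panel the silica rats of day 28 lie above the saline rats of day 28. For Slfn13 and Lum the first silica rat of day 14 reaches the silica levels of day 28 and the other silica rats of day 14 do not. For Gjb2 both silica and saline rats of day 14 reach them. The second silica rat of day 14 does so for Milr1 and the third for Oas3.

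Genes of DNA replication and repair made up 5 of the 45 and mitosis 1. Gen1 encodes a resolvase that cuts recombination intermediates, Primpol a primase that restarts stalled forks, and Orc1 a subunit of the origin recognition complex. Ttk encodes the kinase that starts the spindle checkpoint, and its probe is shown because only a bound can be given for it.
Ttk: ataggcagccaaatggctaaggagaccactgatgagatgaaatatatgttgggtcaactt
Ttk was at 3.32, 3.86 and 3.66 in saline and 4.35, 3.59 and 3.95 in silica rats on day 14. On day 28 it was at 3.43, 3.56 and 2.37 in saline rats, none of them well above background, and 4.82, 4.79 and 5.01 in silica rats. Taking the detection limit of each array in place of dimmer signals, silica was at least 2.12-fold higher on day 28, with measured means of 4.87 and 3.12.

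Gen1 stood at 5.10, 4.43 and 5.56 in saline and 4.78, 4.34 and 5.37 in silica rats of day 14, with the silica mean below the saline mean. On day 28 it stood at 4.28, 5.11 and 3.49 in saline and 5.84, 5.65 and 5.42 in silica rats. The saline rats of day 28 spread over more than the whole difference of that day, which was 1.34 ± 0.41. Primpol was at 4.90, 4.03 and 4.70 in saline and 5.36, 4.74 and 4.74 in silica rats on day 14. It was at 3.64, 4.12 and 4.03 in saline and 5.51, 5.70 and 5.65 in silica rats on day 28 and exceeded all 9 other rats in the silica rats of that day. Orc1 had levels of 3.91, 3.92 and 3.76 in saline and 3.47, 4.55 and 4.71 in silica rats on day 14 and 4.12, 4.03 and 3.84 in saline and 5.51, 5.36 and 4.98 in silica rats on day 28. Orc1 was 1 of the 3 members whose saline mean was higher on day 28 than on day 14. The probes of Gen1 and Primpol cleared the background on 2 of 3 saline arrays of day 28. That of Orc1 cleared it on 2 of 3 arrays in every group but the silica rats of day 28. Donson, which protects replication forks, and Ccne2, the cyclin of the entry into S phase, differed by 1.12 and 1.105 on day 28 and by 0.44 and 0.42 on day 14.

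The other named genes of cell division were many more. Of 53 named mitosis genes, Ttk included, 53 were called higher on day 28 and 20 on day 14, with medians of 1.64 and 0.91. Of 26 named replication genes, 26 were called on day 28 and 7 on day 14, with medians of 1.37 and 0.91. These genes too were listed by the study for their rise on day 28.

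Histone genes contributed Hist2h3c2 and Hist3h2ba. Their messages pack new DNA in S phase, and near-identical copies can share a probe, so the values may be those of several genes. Hist2h3c2 was at 14.17, 13.92 and 13.90 in saline and 14.28, 14.38 and 14.42 in silica rats of day 14 and 13.64, 14.07 and 13.76 in saline and 14.69, 14.93 and 14.88 in silica rats on day 28. Hist3h2ba was at 12.49, 12.30 and 12.32 in saline and 12.85, 12.85 and 12.85 in silica rats on day 14 and 12.25, 12.60 and 12.20 in saline and 13.35, 13.46 and 13.40 in silica rats on day 28. The differences were 1.01 and 1.05 on day 28 and 0.36 and 0.48 on day 14, and on each day the silica rats lay above the saline rats with no overlap. With 75th-percentile scaling both passed the limit of day 14, at 0.75 and 0.72, as did Tlr13 (0.57), Slfn13 (0.51) and RGD1560927 (0.51). LOC102549061, which the study describes as a histone H2B gene, differed by 1.27 and 0.27.

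Nfkbid, an inhibitor protein of NF-kB in the nucleus, was dim in the controls, and its probe is shown for the same reason.
Nfkbid: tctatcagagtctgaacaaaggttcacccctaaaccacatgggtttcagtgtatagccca
Levels were 3.38, 3.80 and 3.65 in saline and 2.88, 4.49 and 3.97 in silica rats of day 14. They were 3.21, 3.38 and 3.30 in saline rats of day 28, none well above background, and 5.47, 4.64 and 4.79 in silica rats. By the same bound silica was at least 2.27-fold higher on day 28, with measured means of 4.97 and 3.30. The list of NF-kB regulators held 10 named genes, all called higher on day 28 and 6 on day 14 (4.74% and 2.87% of the tested probes). Their medians were 1.63 and 1.24.

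Milr1, an inhibitory receptor of mast cells, was at 6.23, 5.61 and 6.05 in saline and 6.05, 7.40 and 5.90 in silica rats of day 14. It was at 5.06, 5.85 and 4.90 in saline and 6.36, 7.80 and 7.69 in silica rats on day 28. The second silica rat of day 14 lay well above the other 2, the first silica rat of day 28 well under the other 2, and the silica rats of both days overlapped. Over 3 named mast cell markers, the mean level was 3.91 to 5.25 in the saline rats. It was 5.67 to 7.16 in the silica rats of day 14 and 7.20 to 7.43 in those of day 28. Milr1, which the rule chose, is part of that mean. The other 2 markers were raised on both days, Mcpt1l1 by 1.87 on day 28 and 2.53 on day 14 and Mrgprx2 by 3.52 and 3.13. The part of mast cells in the result was not tested.

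Among genes of the epithelium were Gjb2, Tm4sf4, Car6 and Gcnt1. Gjb2 encodes the gap junction protein connexin 26, and its probe is shown because its difference turned sign between the days.
Gjb2: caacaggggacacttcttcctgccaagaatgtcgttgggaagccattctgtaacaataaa
Gjb2 was at 5.73, 4.88 and 5.66 in saline and 5.09, 5.19 and 4.95 in silica rats of day 14, and the difference was -0.34. It was at 4.54, 4.41 and 3.81 in saline and 5.75, 5.02 and 5.54 in silica rats on day 28. The silica rats were about as high on day 28 as the saline rats of day 14, and the saline mean of day 28 minus that of day 14 was -1.17, the lowest among the 45. Tm4sf4, a membrane protein of the tetraspanin kind, was at 5.80, 5.30 and 5.78 in saline and 5.67, 5.20 and 5.26 in silica rats on day 14. It was at 5.55, 4.59 and 5.09 in saline and 5.68, 6.35 and 6.24 in silica rats on day 28, where 1 saline rat came near the lowest silica rat and the difference within slide 1 was 0.54. Car6, a secreted carbonic anhydrase, was at 5.33, 4.78 and 4.85 in saline and 6.02, 4.85 and 4.63 in silica rats on day 14 and 4.70, 4.60 and 4.43 in saline and 5.71, 5.97 and 5.41 in silica rats on day 28. Gcnt1, which branches O-glycans, differed by 1.03 and 0.42. Of 18 named genes of this list all were called higher on day 28 and 12 on day 14 (4.74% and 2.87% of the tested probes). Their median difference was 1.39 on day 28 and 1.41 on day 14, so the list as a whole did not share the pattern of its members.

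Lipid genes were Lpl, Cyp7b1 and Fam213b. Lpl, the lipase that frees fatty acids from lipoproteins, was at 7.61, 7.15 and 7.61 in saline and 7.92, 7.28 and 7.74 in silica rats of day 14. It was at 7.69, 7.67 and 7.66 in saline and 8.70, 8.60 and 8.93 in silica rats on day 28, where the saline rats lay close together and all silica rats lay above every other rat. Cyp7b1, which hydroxylates oxysterols, was at 6.68, 6.26 and 6.57 in saline and 6.92, 6.87 and 6.75 in silica rats on day 14 and 6.04, 6.20 and 6.19 in saline and 7.45, 7.38 and 6.93 in silica rats on day 28. Its silica rats exceeded the saline rats on both days. Fam213b, a prostamide synthase (Prxl2b in RefSeq), was well above background on 1 of 3 silica and no saline arrays of day 28 and did not enter the fit's calls. By the same bound it was at least 1.27-fold higher in silica rats on day 28, so that 2-fold is not shown, with measured means of 4.13 and 3.02.

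Lum encodes lumican, a proteoglycan that spaces collagen fibrils. It was at 7.35, 7.19 and 7.25 in saline and 9.12, 7.19 and 6.84 in silica rats of day 14. It was at 7.55, 8.0 and 7.35 in saline and 9.47, 8.82 and 8.93 in silica rats of day 28. Again the first silica rat of day 14 was at the level of day 28 and the other 2 were at or under the levels of the controls, and without it the difference of day 14 went from 0.45 to -0.25. Col1a1, the only fibroblast marker among the named genes, was at 10.52 in that rat and at 9.62 and 9.36 in the other 2. The part of fibroblasts in this value was not tested.

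Nfil3, a transcription factor needed for natural killer cells and clock output, was at 6.43, 5.86 and 6.40 in saline and 5.84, 6.75 and 6.01 in silica rats on day 14. It was at 4.93, 5.92 and 5.93 in saline and 6.97, 6.53 and 6.41 in silica rats on day 28, and the difference was 1.04 in all and 1.71 within slide 1. The saline rat of slide 1 was the one at 4.93, and without it the difference of day 28 was 0.71. Mthfd2l, a mitochondrial enzyme of folate metabolism, was at 4.50, 3.48 and 4.53 in saline and 3.77, 4.41 and 4.27 in silica rats on day 14 and 4.29, 4.13 and 3.90 in saline and 5.06, 5.26 and 5.01 in silica rats on day 28. All its silica rats of day 28 exceeded every other rat. Dock10 was at 4.53, 3.70 and 3.99 in saline and 5.46, 4.14 and 3.40 in silica rats on day 14 and 3.78, 4.46 and 3.85 in saline and 5.03, 5.28 and 4.89 in silica rats on day 28, and again its highest level was in the first silica rat of day 14. The probes of Mthfd2l and Dock10 did not clear the background on every array.

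Outside every role list were 17 genes, Milr1 and LOC102549061 among them. Adrbk2 (Grk3, a kinase of G protein-coupled receptors) differed by 1.27 on day 28 and 0.17 on day 14, RGD1560927 by 1.35 and 0.47, RGD1563091 (Samd9) by 1.32 and 0.37 and LOC102554663 by 1.25 and 0.41. Without the first silica rat of day 14 the difference of that day was -0.35 for Adrbk2 and 0.00 for LOC102554663. The other 11, Gpr52, Strip2, Tex29, Cfap44, Ap1s2, Prkcd, Sema4b, Rufy3, Dclk1, Mob3a and Camk1d, differed by 1.00 to 1.16 on day 28 and by -0.01 to 0.49 on day 14. Prkcd is a kinase of the protein kinase C family used in phagocytes, and Cfap44 a protein of motile cilia. A second named probe existed for Rufy3, Donson, RGD1563091 and Tlr13. All 4 were at least 1 on day 28, and those of Rufy3 and RGD1563091 were also under 0.5 on day 14.

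The plot of differences orders the genes by the gap between days.

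**Figure D3:**
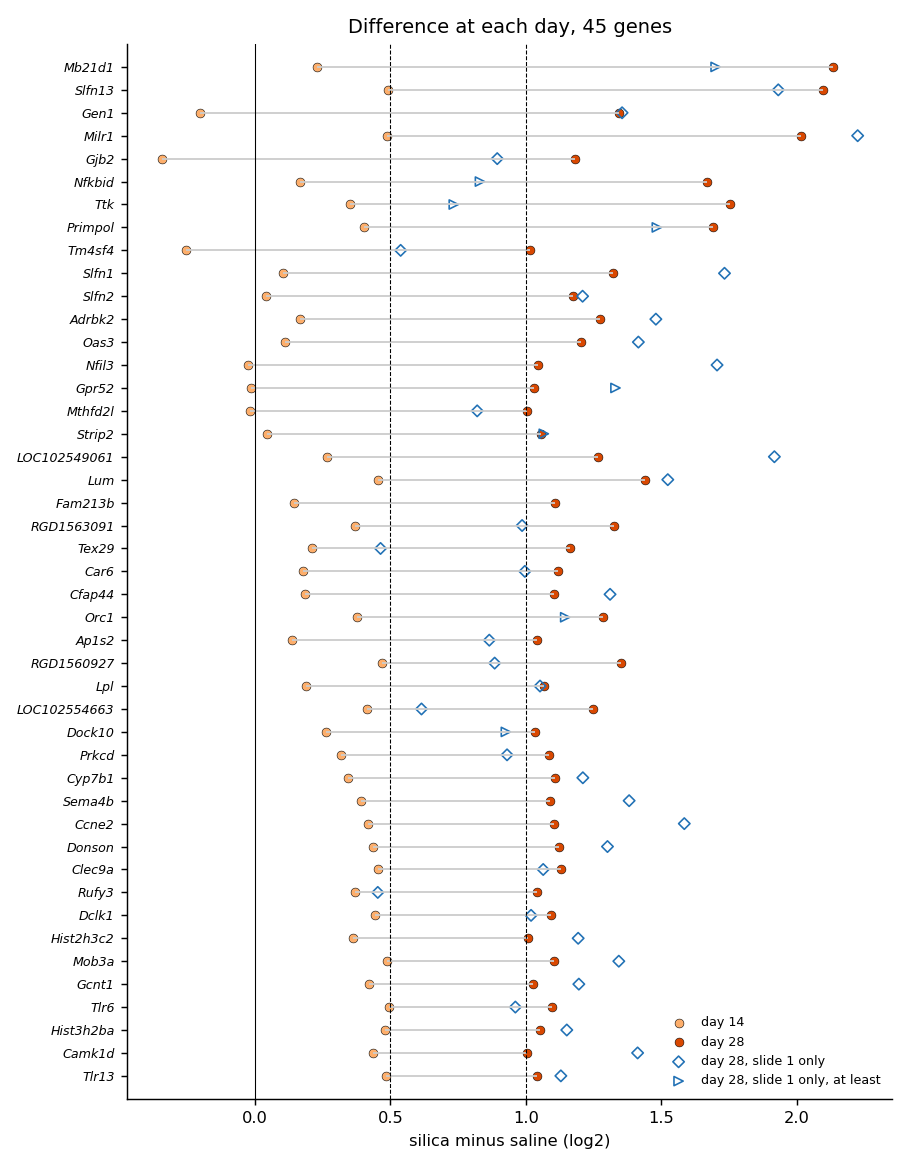
Silica minus saline (log2) of each of the 45 genes on day 14 (light points) and day 28 (dark points), with day 28 computed within slide 1 as open diamonds, or as open triangles at the least difference where the saline rat of slide 1 was not well above background, and dashed lines at the limits of 0.5 and 1; genes are ordered by the gap, from 0.56 for Tlr13 to 1.90 for Mb21d1. Within slide 1 the diamonds of 36 genes run from 0.45 to 2.22 and the triangles of 8 genes from 0.73 to 1.70, and Fam213b has none.

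Both arms entered the gap. From day 14 to day 28 the silica mean was higher for all 45 genes, by 0.16 to 1.58 (median 0.53). The saline mean was lower for 42 of them, with a median of -0.36 and a range from -1.17 to 0.37. In 16 genes the saline mean was lower by more than the silica mean was higher. Lum, Lpl and Orc1 were the 3 genes whose saline mean was not lower on day 28. Among the other 385 genes raised on day 28, the saline mean was lower for 226, with a median of -0.07, and the silica mean differed by a median of 0.40. Over all 34097 tested probes the medians were 0.00 in saline and 0.04 in silica rats. The gap of the other 385 genes had a median of 0.46 and reached 2.01, against a median of 0.94 and a highest value of 1.90 for the 45. It was at least 1 for 48 of the 385 and for 18 of the 45. Since the gap combines both arms and chose the genes, these values are a description.

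**Figure D4:**
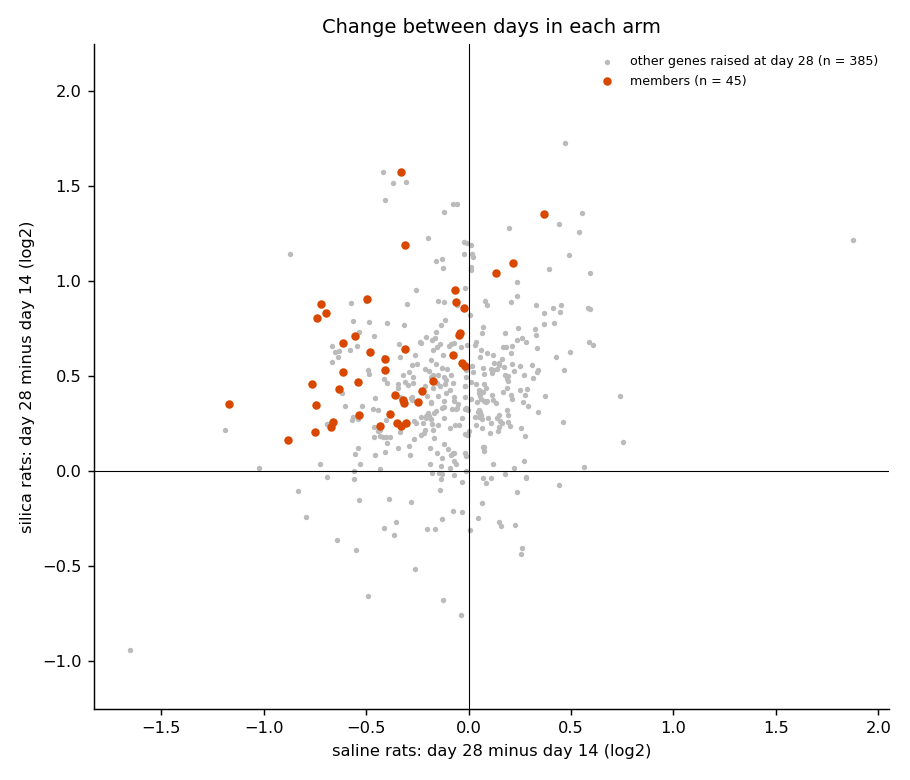
Day 28 minus day 14 (log2) in saline rats (horizontal) and in silica rats (vertical) for the 45 members (orange) and the other 385 named genes raised on day 28 (grey). All members lie above 0 for silica rats and 42 of 45 lie below 0 for saline rats.

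Both arms were looked at within slides as far as the arrays allow. Saline replicates 2 and 3 of day 28 lay on slide 2 with the day 14 arrays. Their mean was under that of the saline rats of day 14 for 38 of the 45 genes, with a median of -0.31. Within slide 1, the difference of day 28 was taken against saline replicate 1, where 36 of the 45 probes cleared the background. For these 36 genes it had a median of 1.19 and stayed at or above 1 for 24. For the 9 others the measured differences were 1.16 to 2.96, but with the detection limit in place of the saline signal 8 of them differed by at least 0.73 to 1.70, with 5 at or above 1, and no bound could be given for Fam213b. The measured difference was lowest for Rufy3 (0.45), Tex29 (0.46) and Tm4sf4 (0.54). The difference of the silica rats between day 14 and day 28 cannot be measured within a slide.

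The 12 rats differed among themselves. Relative to the mean of the saline rats of day 14, the median of the 45 genes was 0.56, 0.20 and 0.22 in the silica rats of day 14. It was -0.49, -0.22 and -0.40 in the saline rats and 0.89, 0.94 and 0.76 in the silica rats of day 28. The first silica rat of day 14 was the highest of its group for 30 of the 45 genes. Without it the day 14 differences had a median of 0.16 and ran from -0.45 to 0.77, with 15 below 0 and 5 at or above 0.5. Without saline replicate 1 of day 28 the day 28 differences had a median of 1.14, and 12 fell under 1. With any 1 array left out, 31 to 43 of the 45 genes kept both limits, and 6 of them, Mb21d1, Slfn1, Slfn2, Oas3, Prkcd and Cyp7b1, kept both in all 12 cases. Of these 6, only Slfn2 also kept both limits after normexp background correction. The day 28 differences of the other 5 then ran from 0.51 (Slfn1) to 0.98 (Prkcd).

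**Figure D5:**
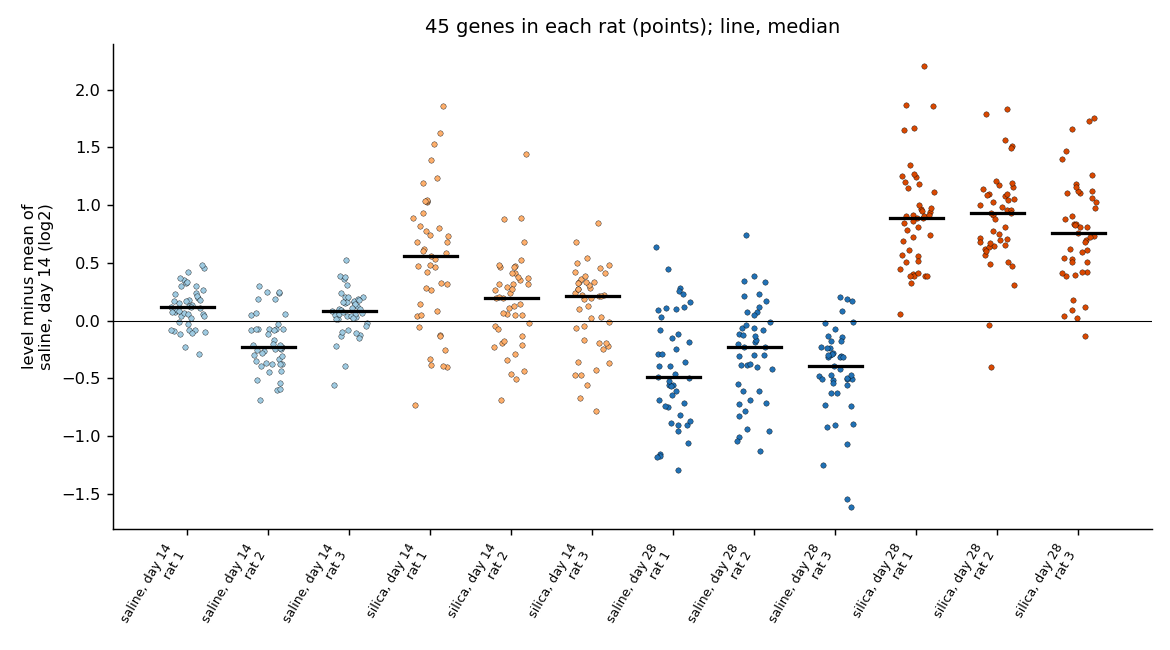
Level of each of the 45 genes in each rat (points) minus its mean in the saline rats of day 14 (log2), with the median over the genes as a line. The medians are 0.76 to 0.94 in the 3 silica rats of day 28 and -0.49 to -0.22 in the 3 saline rats of day 28, and the first silica rat of day 14, at 0.56, lies between the other silica rats of day 14 and those of day 28.

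Named markers of other cells differed between silica and saline rats on both days, though not every one was called on day 14. Only genes that the study listed as changed on day 28 had names. Markers without a change on that day could therefore not appear, and their difference on day 28 follows from the listing. The mean level of 9 macrophage markers was 6.94 to 7.65 in saline rats, 9.57 to 10.27 in silica rats of day 14 and 10.00 to 10.54 in those of day 28. For 5 T and NK cell markers it was 5.68 to 6.51, 7.27 to 8.73 and 8.14 to 8.38. The 4 endothelial markers stood at 11.52 to 12.05 in saline rats, 9.61 to 10.84 in silica rats of day 14 and 9.79 to 10.76 in those of day 28. Macrophage markers had a median difference of 2.87 on day 28 and 2.82 on day 14, T and NK cell markers 2.23 and 1.32. The 3 named markers of B and plasma cells differed by medians of 1.57 and 1.66, the neutrophil marker Trem3 by 1.57 and 1.08 and the airway marker Tppp3 by -1.53 and -1.55. The 2 red blood cell markers, Hbb-b1 and Hbe2, stood at a mean level of 13.04 to 15.05 in saline rats, 11.42 to 12.43 in silica rats of day 14 and 10.07 to 12.71 in those of day 28, with median differences of -2.77 and -1.51. The part of these cells in the values of the 45 genes was not tested.

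The background correction weighed on the sizes. After normexp correction with an offset of 50, which draws dim probes together, 7 of the 45 genes kept both limits, and the median difference was 0.67 on day 28 and 0.13 on day 14. The 7 were Slfn13, Milr1, Slfn2, Lum, Hist2h3c2, Hist3h2ba and Tlr13. Of the 45 probes, 32 cleared the background in all 12 rats.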

How the data were processed

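The authors scanned single-colour Agilent arrays with Agilent Feature Extraction 10.7.1.1, per the labels, and deposited a background-subtracted spot intensity for 62972 spots per array, with a table of log2 values whose scale matched quantile normalization over all 12 arrays (median absolute difference 0.000240 from the values used here). The 1439 control spots and outlier flags were left out, spots of a probe were averaged, and log2 intensities were quantile normalized. Only probes that cleared the background in all 3 rats of some group were tested. Groups were compared with limma 3.58.1 (R 4.3.3; 4 group means, Benjamini-Hochberg) and a call needed 2-fold and an adjusted p no higher than 0.05. Standard errors are those of limma; with 3 rats against 3 an exact permutation p cannot go below 0.1. The 12 rats are separate animals by title alone.

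Names came from the readable first part of the study's list of genes changed on day 28 (1279 probes, 1099 genes), and the brightest probe stood for a gene. RefSeq (GRCr8) gave current symbols for 44 of the 45 genes, promoters and gene order. Protein values and the authors' own fold changes and p-values were not used. Differences for choosing genes came from the deposited log2 table. The genes and lists were chosen with earlier results of these data known. Within each role list the 3 members with the largest gap that cleared the background in all silica rats of day 28 are given by rat, with the 10 largest gaps overall; Oas3 was given by rat after its values were seen. The numbers of the replicates did not pair rats (18 correlations of deviations, -0.237 to 0.237). A fold given as "at least" sets the mean of the brighter group against the mean, over the dimmer arrays, of the larger of the probe's signal and the lowest signal well above background. Alternatives were 75th-percentile scaling, normalization within a day, normexp background correction, the deposited table, slide and replicate blocks, no filter, all probes of a gene, and each array left out.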

Additional observations from a re-analysis of the deposited data

How the results depend on the processing

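Of the 45 genes, 7 kept both limits after normexp background correction, where the median difference was 0.67 on day 28 and 0.13 on day 14; the other alternatives that kept every rat left 32 to 45 of them. The median of day 28 was 1.21 with slide as a block, where 33 genes kept both limits. That fit takes the day 28 difference within slide 1, against the only saline rat there, so the values within slide 1 are the same by construction. With the detection limit in place of dim saline signals within slide 1, 29 genes kept both limits, with a median of 1.17 over 44 genes. This last alternative was chosen after seeing the data. With each array left out, 31 to 43 genes kept both limits, and the medians ran from 1.11 to 1.19 on day 28 and from 0.16 to 0.39 on day 14. Probes called numbered 3322 on day 28 and 1924 on day 14, against 1314 and 734 after normexp, and 2542 to 3815 and 1125 to 2590 with an array left out, the lowest of day 14 without silica replicate 1 of that day. For the interaction, limma called 0 probes, and 1 after normexp, 4 with slide as a block, 1 with no filter on dim probes and 0 to 264 with an array left out, the highest without saline replicate 1 of day 28. With the replicate number as a block, 45 genes kept both limits and 3304, 1949 and 0 probes were called, so the block changed no call by over 1.5 times. The causes were not tested. Levels near background limit Mb21d1, Nfkbid, Ttk and Fam213b. They also limit Gen1, Primpol, Orc1, Mthfd2l, Dock10, Gpr52, Strip2, Tex29 and RGD1560927, whose probes did not clear the background in every rat.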
